A study of Mus musculus with 16 samples.

Results

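The genes described here are 41 immediate early and activity-regulated genes, taken by gene name from the 45706 genes of the deposited count table. All 41 names were found, and all 41 passed the filter on low counts in each of the 5 comparisons below.

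Immediate early genes are transcribed soon after calcium entry, cyclic AMP or growth factor signals reach the nucleus, through factors that are already present there, such as CREB, SRF and MEF2. Their products include transcription factors (the AP-1, EGR and NR4A families and Npas4), feedback inhibitors such as the dual-specificity phosphatases, and proteins that act at synapses, such as Arc, Homer1 and BDNF. In the hypothalamus, Fos is widely used to mark neurons that have recently been active.

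RNA was taken from the mouse hypothalamus by bacTRAP, in which ribosomes tagged with an L10a-GFP fusion protein are precipitated with antibodies to GFP. The tag sits behind a STOP cassette at the ROSA locus and is made only in Cre-expressing cells, here the PNOC neurons, which make prepronociceptin. A pulldown library is therefore meant to hold RNA bound to the tagged ribosomes. An input library holds RNA of the whole hypothalamic lysate from which that pulldown was made. The 4 groups of 4 libraries were compared: the Lepr-deletion pulldown, the control pulldown, the Lepr-deletion input and the control input. The Lepr-deletion animals are labelled as having a deletion of Lepr, the leptin receptor gene, in Pnoc cells, and the controls as Lepr-flox. All animals were C57Bl/6N mice that carried the tag, ate chow and were random fed, with tissue taken in the morning at 12 weeks of age (10 to 12 weeks by the extraction protocol) and snap frozen. Each library came from 4 pooled animals, control pools being numbered 1 to 4 and Lepr-deletion pools 5 to 8, so an SD below is the spread between pools and not between animals.

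The libraries held 64435888 to 78623579 estimated counts each. Pnoc, the gene of prepronociceptin, was higher in the pulldown than in the input by a log2 fold change of 1.68 in both genotypes (edgeR adjusted p = 6.5e-08 in the Lepr-deletion and 2.04e-07 in the control libraries). Of 52 marker genes of glia, vessels, tanycytes and ependyma, 50 of 51 tested were lower in the pulldown than in the input of Lepr-deletion pools and 51 of 51 in control pools, with median log2 fold changes of -3.90 and -4.16. Lepr itself was higher, not lower, in the Lepr-deletion pulldown when all of its counts were summed: it was 2.42, 2.54, 2.82 and 2.68 CPM (counts scaled to library size) there, against 1.86, 1.42, 1.64 and 1.55 CPM in the control pulldown (log2 fold change 0.71, SE 0.12, edgeR adjusted p = 0.0386). The total over a gene does not show whether a part of it was deleted, so this is no check of the labels, and "Lepr deletion" below is the name the labels give. Control pool 1 and Lepr-deletion pool 5 stood apart: leaving both out raised the number of genes that differed between genotypes to 3363 from 108 in the pulldown and to 1957 from 41 in the input. Of those 3363 genes, pool 5 stood to pool 1 in the same direction as the other Lepr-deletion to the other control pools in 1190, or 35.4%, and in the input in 647 of 1957, or 33.1%. In the other genes the direction was opposite. Whether the labels of these 2 pools were exchanged, or a batch sets them apart, was not tested, and either would change what the genotype values mean. Genotype results below are therefore given with and without these pools. The ground for leaving them out is the genotype comparison itself, so adjusted p-values and calls without them are no independent support.

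Promoter windows are shown for the members called between genotypes in the pulldown, the NR4A family, Fos, Dusp1 and Fosl2. Of these, Nr4a3, Npas4 and Btg2 were called there with all pools, and the others were not. Each window is the 250 bases before the start site given by RefSeq for build GRCm38.p6, read 5′ to 3′ on the strand of the gene. For Npas4, Nr4a1 and Nr4a3 that start site lies inside the annotated span of the gene. Capitals mark TGACG, or CGTCA where it lies on the other strand, the core letters of the cyclic AMP response element that CREB binds. In TGACGTCA, the full element, these letters overlap on both strands, so it counts as 2 elements.

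Nr4a1: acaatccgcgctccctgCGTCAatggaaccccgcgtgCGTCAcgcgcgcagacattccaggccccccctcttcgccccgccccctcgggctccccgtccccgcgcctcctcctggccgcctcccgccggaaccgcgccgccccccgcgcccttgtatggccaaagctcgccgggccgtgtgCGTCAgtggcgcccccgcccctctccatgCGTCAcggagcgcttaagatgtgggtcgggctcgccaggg
Nr4a2: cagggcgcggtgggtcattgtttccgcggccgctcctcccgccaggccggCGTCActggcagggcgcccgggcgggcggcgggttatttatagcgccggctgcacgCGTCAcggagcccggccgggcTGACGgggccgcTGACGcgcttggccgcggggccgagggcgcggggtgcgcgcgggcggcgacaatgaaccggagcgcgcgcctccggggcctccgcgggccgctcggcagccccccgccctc
Nr4a3: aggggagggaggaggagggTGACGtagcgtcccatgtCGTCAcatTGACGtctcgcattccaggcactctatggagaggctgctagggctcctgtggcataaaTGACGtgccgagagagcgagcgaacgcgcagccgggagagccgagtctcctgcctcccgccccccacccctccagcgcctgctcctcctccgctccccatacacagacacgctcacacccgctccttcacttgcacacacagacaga
Npas4: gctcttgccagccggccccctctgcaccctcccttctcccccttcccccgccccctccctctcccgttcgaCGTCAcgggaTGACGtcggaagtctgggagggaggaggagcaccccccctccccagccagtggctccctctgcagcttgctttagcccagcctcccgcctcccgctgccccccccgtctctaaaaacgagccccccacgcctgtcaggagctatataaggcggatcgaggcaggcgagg
Btg2: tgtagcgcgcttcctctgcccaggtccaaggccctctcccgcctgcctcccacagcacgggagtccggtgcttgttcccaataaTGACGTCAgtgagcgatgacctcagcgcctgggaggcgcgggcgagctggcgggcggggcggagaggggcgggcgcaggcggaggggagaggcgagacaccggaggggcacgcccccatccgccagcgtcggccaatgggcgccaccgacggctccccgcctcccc
Fos: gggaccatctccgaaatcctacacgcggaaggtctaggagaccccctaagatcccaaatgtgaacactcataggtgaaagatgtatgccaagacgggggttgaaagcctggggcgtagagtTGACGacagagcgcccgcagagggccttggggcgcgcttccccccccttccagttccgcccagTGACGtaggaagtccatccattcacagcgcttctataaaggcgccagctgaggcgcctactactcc
Dusp1: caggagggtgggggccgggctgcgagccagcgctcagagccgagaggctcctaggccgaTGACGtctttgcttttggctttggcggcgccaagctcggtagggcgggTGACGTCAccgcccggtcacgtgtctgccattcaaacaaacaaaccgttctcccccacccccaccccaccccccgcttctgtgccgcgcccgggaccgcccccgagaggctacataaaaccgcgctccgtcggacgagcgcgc

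These windows lie at chr15:101266596-101266845 (plus strand, Nr4a1), chr2:57124004-57124253 (minus strand, Nr4a2), chr4:48045055-48045304 (plus strand, Nr4a3), chr19:4989972-4990221 (minus strand, Npas4), chr1:134079156-134079405 (minus strand, Btg2), chr12:85473640-85473889 (plus strand, Fos) and chr17:26508473-26508722 (minus strand, Dusp1). The Nr4a1, Nr4a2 and Nr4a3 windows each held 4 TGACG elements, a number that 0.137% of all 32851 windows reached or passed. In Nr4a1 they began 233, 213, 69 and 40 bases before the start site, in Nr4a2 200, 144, 123 and 111 bases and in Nr4a3 231, 213, 205 and 147 bases. Npas4 and Fos held 2 each, and the elements of Btg2 and part of those of Dusp1 formed the full TGACGTCA, which is in 1.55% of all windows. A window was available for 31 of the 41 members: 20 of these held TGACG at least once, against 17.8% of all windows, and 12 held it at least 2 times, against 3.90%. The letters are a description of these windows and were not tested as binding sites.

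The Fosl2 window had no TGACG; its capitals mark GCGGGGGCG, which with GCGTGGGCG was searched, on both strands, as the site of EGR factors.

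Fosl2: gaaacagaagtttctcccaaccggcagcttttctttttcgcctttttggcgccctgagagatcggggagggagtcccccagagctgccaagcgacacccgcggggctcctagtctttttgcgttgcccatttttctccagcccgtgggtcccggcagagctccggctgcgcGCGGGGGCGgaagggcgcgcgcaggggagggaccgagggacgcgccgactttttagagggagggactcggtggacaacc

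This window lies at chr5:32136222-32136471 on the plus strand, with the site beginning 79 bases before the start. An EGR site was in the windows of Fosb, Fosl2, Klf2, Klf4, Maff and Nr4a1, and in 3.06% of all windows. The AP-1 site TGACTCA or TGAGTCA was found in the window of Csrnp1 alone among the 31 members, and in 4.46% of all windows. The CArG box of SRF was in those of Dusp5 and Egr2, against 1.47% of all windows. TATAAA, on either strand, was in those of Fos, Gadd45b, Gadd45g, Inhba and Nr4a2, against 12.4% of all windows. In the Nr4a2 window it lies on the strand opposite to the gene.

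Levels are compared between genes only as TPM, which scales to library size and divides by gene length. Egr1, the zinc finger factor most used as an activity marker beside Fos, had the highest level among the members, with a mean of 86.6 TPM in the Lepr-deletion pulldown, 81.3 TPM in the control pulldown, 36.0 TPM in the Lepr-deletion input and 35.5 TPM in the control input. Jun followed in the Lepr-deletion pulldown at 39.5 TPM, then Homer1 at 36.2 TPM and Fos at 32.3 TPM. In the control pulldown Fos came after Egr1 at 38.3 TPM, then Jun at 35.6 TPM and Homer1 at 33.8 TPM. At the other end Klf2 had 0.339 TPM in the Lepr-deletion pulldown and 0.206 TPM in the control pulldown, and Egr3 had 0.574 and 0.751 TPM in the same groups. At least 10 TPM was reached by 15 members in the Lepr-deletion pulldown, 12 in the control pulldown, 8 in the Lepr-deletion input and 7 in the control input. Below 1 TPM were 8 members in the Lepr-deletion pulldown, 8 in the control pulldown, 11 in the Lepr-deletion input and 12 in the control input. These counts do not compare the fractions, because TPM was higher in the pulldown for most genes. On log2(TPM + 1) the median pulldown over input value of all genes was 0.70 in Lepr-deletion and 0.75 in control pools. Egr1 stood at percentile 91.06 of genes above 0 TPM in the Lepr-deletion pulldown and 89.99 in its input. In control pools it stood at 90.59 in the pulldown and 90.72 in the input.

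**Figure D1:**
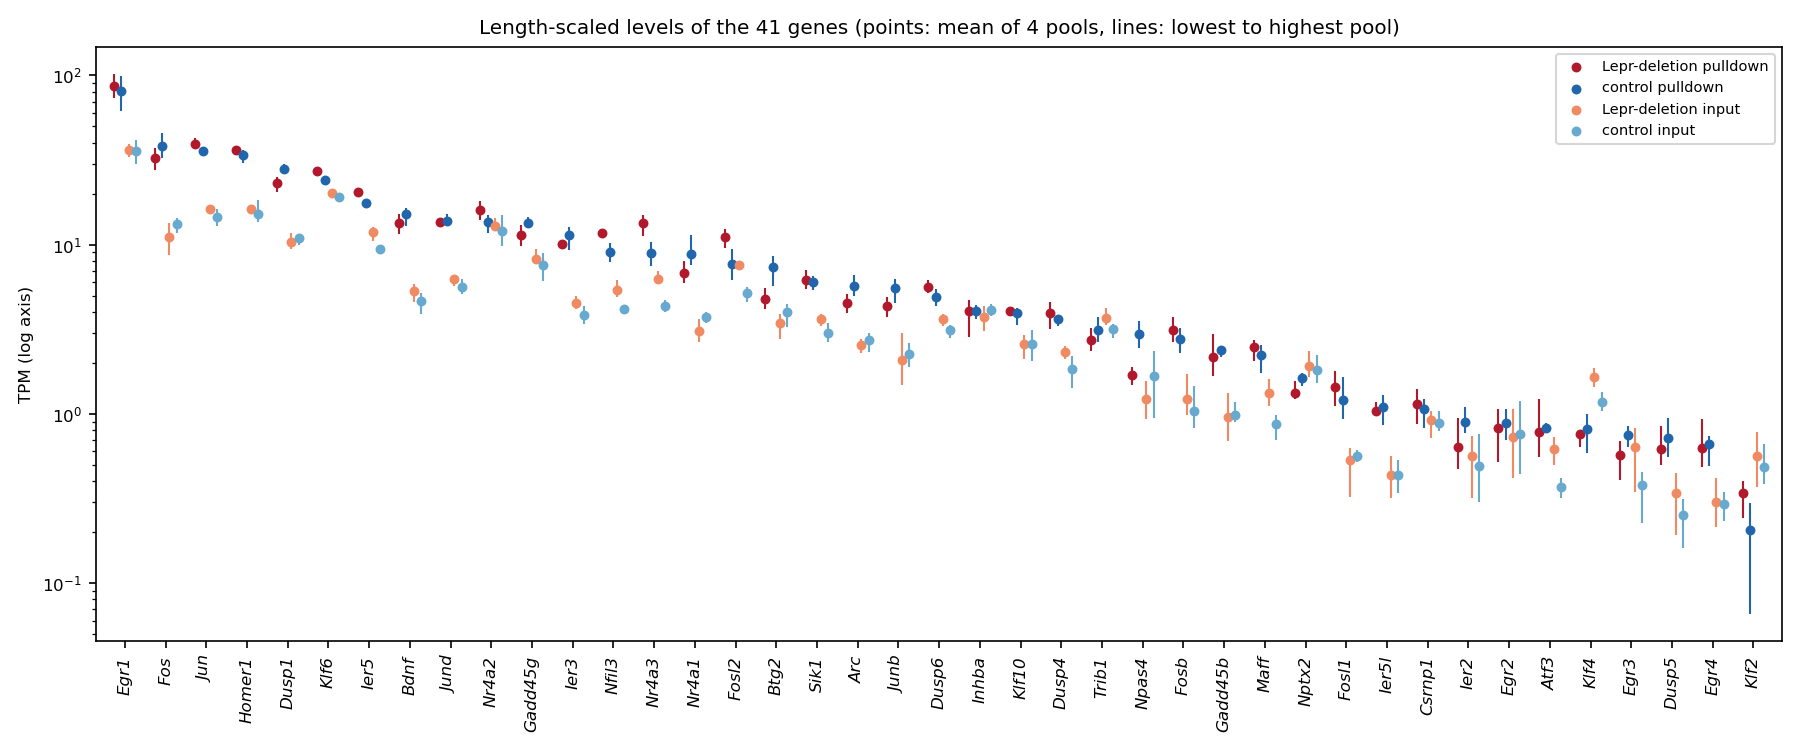
Mean TPM of each of the 41 members in the 4 groups on a log axis, with lines from the lowest to the highest pool and members ordered by their level in the control pulldown. Egr1 is highest in all 4 groups, at 86.6 TPM in the Lepr-deletion pulldown, 81.3 TPM in the control pulldown, 36.0 TPM in the Lepr-deletion input and 35.5 TPM in the control input, and Klf2 is lowest in the Lepr-deletion pulldown and the control pulldown, at 0.339 and 0.206 TPM. TPM was higher in the pulldown than in the input for most genes, so this axis does not compare the fractions.

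The lowest members rest on few counts. Klf2 had 4 to 58 estimated counts per library and Egr3 12 to 43, against 3 counts taken as the floor, which is 0.0320 to 0.0395 CPM in the pulldown libraries and 0.0469 to 0.0562 CPM in the input libraries. These floors cover counting error only. Levels below are CPM scaled by the trimmed mean of M values (TMM), which sets the libraries to the same level over most genes, and are given pool by pool.

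The first comparison set the pulldown RNA of pools labelled as Lepr deletion against that of control pools. In the pulldown, 3 members differed: Nr4a3, a nuclear receptor of the NR4A family, was higher in Lepr-deletion pools, and the neuron-specific activity factor Npas4 and Btg2, an antiproliferative cofactor, were lower. Of 16859 genes tested, 0.641% differed, 0.391% being higher and 0.249% lower, so 1 member higher and 2 lower of 41 stand against those shares. The members' median log2 fold change was -0.09, against -0.01 over all genes tested, and 18 of 41 were positive. In bulk RNA such as this, fewer cells of a type and less RNA per cell cannot be told apart.

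Nr4a3 was at 31.5, 26.2, 31.1 and 33.0 CPM in Lepr-deletion pools 5 to 8, against 24.5, 19.1, 17.3 and 22.1 CPM in control pools 1 to 4. Every Lepr-deletion pool was above every control pool, and pool 1 was the highest control (log2 fold change 0.57, SE 0.10, edgeR adjusted p = 0.0487). Its relatives were not called. Nr4a1 was at 6.70, 5.93, 5.44 and 7.25 CPM in Lepr-deletion pools, against 7.41, 7.70, 7.74 and 10.6 CPM in control pools. Its groups did not overlap either, with every Lepr-deletion pool lower, and pool 4 stood above the other controls (log2 fold change -0.39, SE 0.13, edgeR adjusted p = 0.143). Nr4a2 was at 15.1, 18.9, 15.5 and 17.0 CPM in Lepr-deletion pools, against 16.4, 13.9, 12.8 and 14.7 CPM in control pools, which overlap (log2 fold change 0.22, SE 0.09, edgeR adjusted p = 0.207). So the sign was positive for Nr4a2 and Nr4a3 and negative for Nr4a1, of which only Nr4a3 was called.

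Npas4 was at 2.34, 2.47, 1.86 and 1.91 CPM in Lepr-deletion pools, against 3.25, 3.77, 3.91 and 4.45 CPM in control pools. The groups did not overlap (log2 fold change -0.83, SE 0.13, edgeR adjusted p = 0.0346), and this was the member with the largest change among those called. Btg2 was at 5.32, 4.76, 4.28 and 5.60 CPM in Lepr-deletion pools, against 6.26, 7.65, 8.26 and 9.01 CPM in control pools. Pool 1 was again the control nearest to the Lepr-deletion pools, and the groups did not overlap (log2 fold change -0.63, SE 0.12, edgeR adjusted p = 0.0494). The other nuclear factors of this kind were not called: Ier5 was at 24.9 to 26.4 CPM in Lepr-deletion pools and 21.9 to 23.2 CPM in control pools (log2 fold change 0.20, edgeR adjusted p = 0.0843), and Ier2, Ier5l and Csrnp1 had log2 fold changes of -0.50, -0.09 and 0.09.

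**Figure D2:**
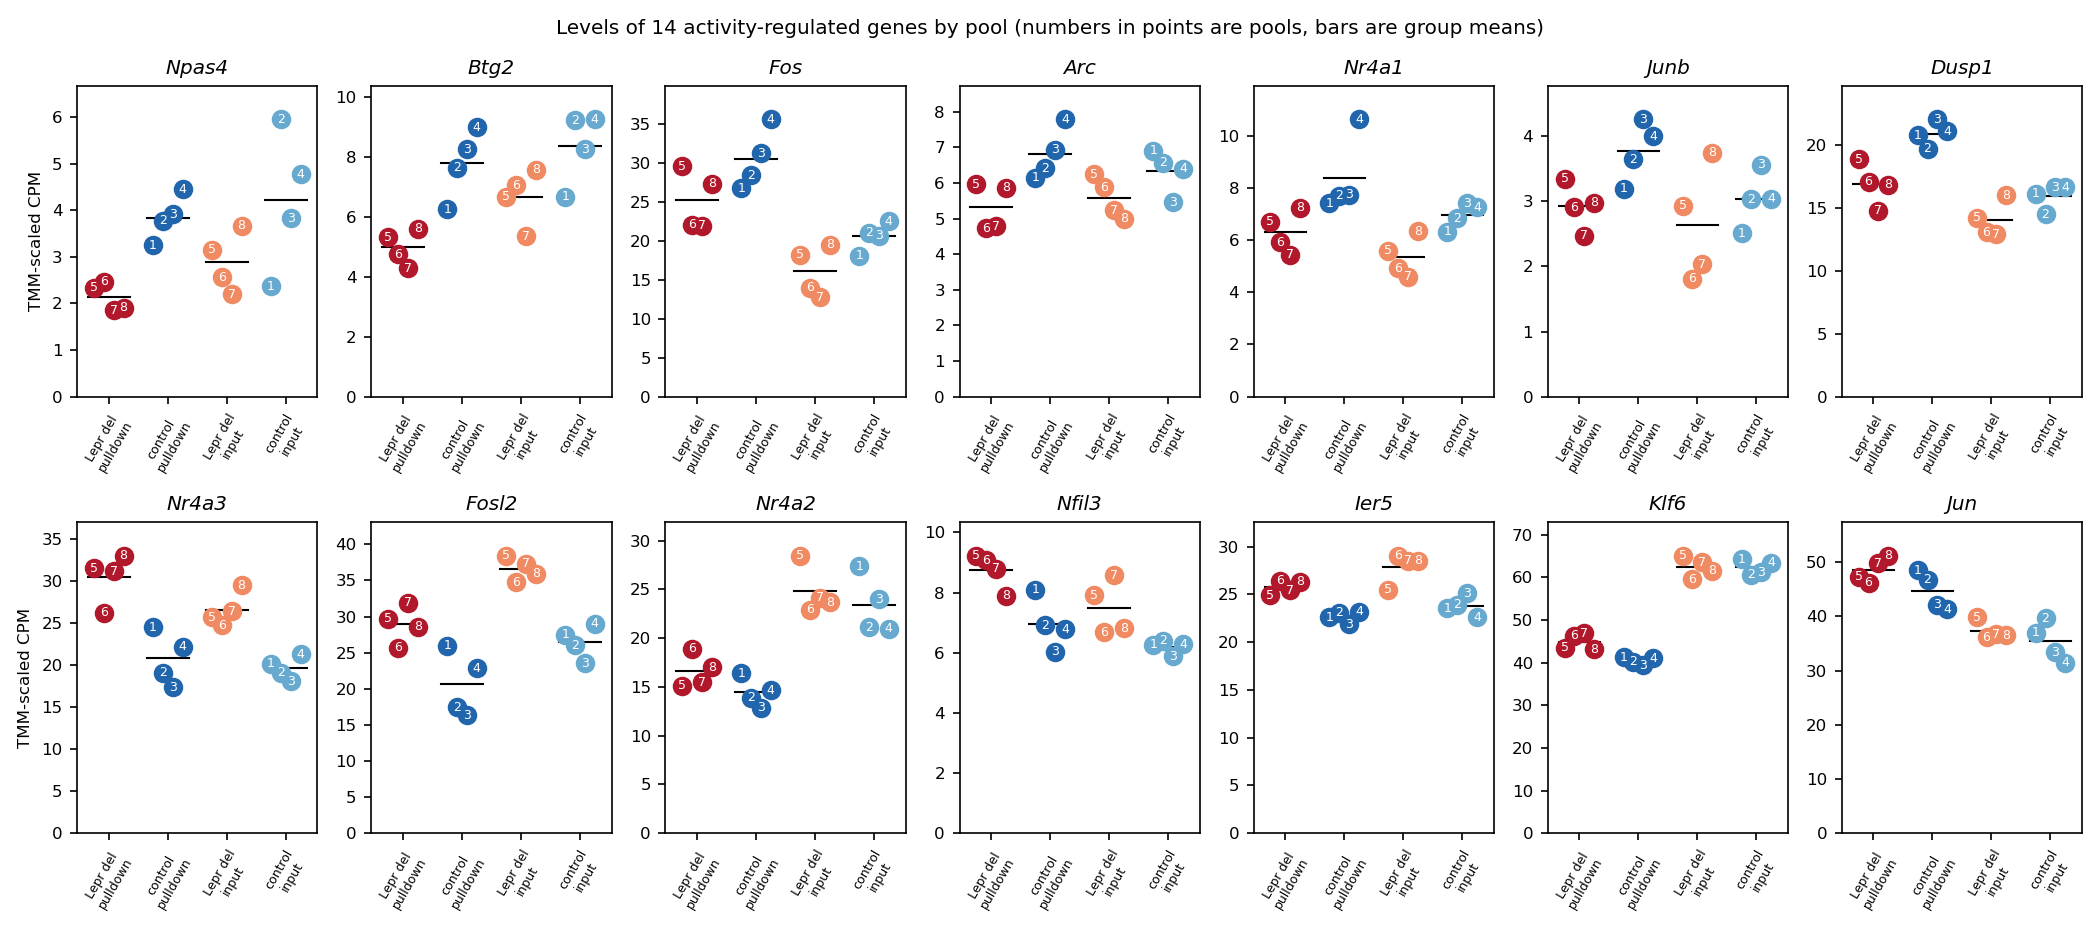
TMM-scaled CPM of selected members in every pool, in the Lepr-deletion pulldown, the control pulldown, the Lepr-deletion input and the control input, with a numbered point for each pool and a bar at the mean of 4 pools. For Npas4 the pulldown points lie at 1.86 to 2.47 CPM in Lepr-deletion pools and 3.25 to 4.45 CPM in control pools, and for Nr4a3 at 26.2 to 33.0 and 17.3 to 24.5 CPM in the same groups.

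Among the AP-1 factors, which bind DNA as pairs of FOS and JUN proteins, none of 7 was called in the pulldown, and their median log2 fold change was 0.14. Fosl2, the FOS relative also called Fra-2, was at 29.7, 25.7, 31.9 and 28.6 CPM in Lepr-deletion pools, against 25.97, 17.5, 16.3 and 22.9 CPM in control pools. Only pool 6 lay below control pool 1, so the groups overlapped by that pair (log2 fold change 0.50, SE 0.13, edgeR adjusted p = 0.0877). Fos was at 29.5, 22.0, 21.9 and 27.3 CPM in Lepr-deletion pools, against 26.7, 28.4, 31.2 and 35.5 CPM in control pools. Pools 5 and 8 lay above control pool 1, and the difference did not pass (log2 fold change -0.26, SE 0.11, edgeR adjusted p = 0.231). Junb was at 3.35, 2.91, 2.47 and 2.98 CPM in Lepr-deletion pools, against 3.19, 3.64, 4.26 and 4.00 CPM in control pools (log2 fold change -0.35, SE 0.13, edgeR adjusted p = 0.162), and pool 5 lay above pool 1. Jun was at 47.4, 46.2, 49.8 and 51.2 CPM in Lepr-deletion pools, against 48.5, 46.8, 42.1 and 41.3 CPM in control pools (log2 fold change 0.14, SE 0.06, edgeR adjusted p = 0.247). Fosb was at 5.21, 4.09, 3.85 and 5.29 CPM in Lepr-deletion pools, against 4.94, 3.38, 3.92 and 4.40 CPM in control pools, which overlap widely. Jund, which is made more steadily than the other JUN factors, and Fosl1 had log2 fold changes of -0.03 and 0.23.

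Egr1 was at 123, 89.6, 89.99 and 108 CPM in Lepr-deletion pools, against 75.8, 91.5, 107 and 117 CPM in control pools. Pool 5 was the highest Lepr-deletion pool and pool 1 the lowest control pool, and the groups overlapped (log2 fold change 0.08, SE 0.13, edgeR adjusted p = 0.785). Its sign depended on those 2 pools, being -0.12 without them. Egr2, Egr3 and Egr4, which share the zinc finger domain of Egr1, had log2 fold changes of -0.09, -0.41 and -0.10, none called. Of the KLF zinc finger factors, Klf6 was at 43.1 to 46.8 CPM in Lepr-deletion pools and 39.4 to 41.2 CPM in control pools, without overlap (log2 fold change 0.16, SE 0.05, edgeR adjusted p = 0.104). Klf2, Klf4 and Klf10 had log2 fold changes of 0.69, -0.11 and 0.03, none called, the first of them resting on the few counts given above. Of the other leucine zipper factors, Nfil3 was at 9.22, 9.07, 8.79 and 7.90 CPM in Lepr-deletion pools, against 8.09, 6.91, 6.03 and 6.78 CPM in control pools (log2 fold change 0.34, edgeR adjusted p = 0.0948). Atf3 and Maff had log2 fold changes of -0.09 and 0.13.

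Feedback inhibitors are made to end the signal that induced them. Dusp1, a phosphatase of MAP kinases, was at 18.9, 17.1, 14.8 and 16.9 CPM in Lepr-deletion pools, against 20.8, 19.7, 22.1 and 21.1 CPM in control pools. Each Lepr-deletion pool was below each control pool (log2 fold change -0.30, SE 0.07, edgeR adjusted p = 0.0864). Its relatives Dusp4, Dusp5 and Dusp6 had log2 fold changes of 0.10, -0.22 and 0.18. The others of this group were Sik1, a salt-inducible kinase, at 0.02, Trib1, a pseudokinase, at -0.22, Ier3 at -0.20, and the stress-response genes Gadd45b and Gadd45g at -0.16 and -0.26. None of the 9 was called, and their median was -0.20.

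Of the 5 synaptic and secreted effectors none was called. Arc, which drives the removal of AMPA receptors from synapses, was at 5.96, 4.73, 4.78 and 5.87 CPM in Lepr-deletion pools, against 6.15, 6.41, 6.94 and 7.79 CPM in control pools. All Lepr-deletion pools were lower than all control pools (log2 fold change -0.34, SE 0.11, edgeR adjusted p = 0.135). Bdnf, the gene of a neurotrophin, was at 22.5, 18.9, 22.7 and 18.8 CPM in Lepr-deletion pools, against 26.02, 23.4, 20.1 and 25.1 CPM in control pools (log2 fold change -0.18, SE 0.09, edgeR adjusted p = 0.3). Homer1, a scaffold of metabotropic glutamate receptors with a short activity-induced form that gene totals do not separate, was at 51.8, 49.0, 49.4 and 51.2 CPM in Lepr-deletion pools, against 53.1, 48.4, 40.3 and 45.8 CPM in control pools. Its groups overlapped (log2 fold change 0.12, edgeR adjusted p = 0.392). Nptx2, a pentraxin that gathers AMPA receptors, and Inhba, a subunit of activin, had log2 fold changes of -0.31 and -0.01.

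Without pools 1 and 5, 14 members differed in the pulldown, 7 higher against 9.35% of genes and 7 lower against 10.5%. The p-values here follow a choice of pools made on this same comparison, and describe the remaining pools only. The members higher in the 3 remaining Lepr-deletion pools were Nr4a3 (log2 fold change 0.63, edgeR adjusted p = 0.00108), Fosl2 (0.61, adjusted p = 0.00297), Nfil3 (0.40), Nr4a2 (0.32), Ier5 (0.21), Jun (0.19) and Klf6 (0.18). The members lower were Npas4 (log2 fold change -0.95, edgeR adjusted p = 0.00102), Btg2 (-0.76, adjusted p = 0.000939), Junb (-0.50), Nr4a1 (-0.48), Arc (-0.45), Fos (-0.41) and Dusp1 (-0.36). Pool 5 stood to pool 1 in the direction of the other 6 pools for 10 of these 14 members, the exceptions being Fos, Jun, Junb and Nr4a2. Among all genes called in the pulldown without those pools the share was 35.4%. With all pools kept and only the groups' ranges compared, 3 members were higher and 5 lower without overlap. Of all 16859 genes tested, 858 were higher and 830 lower without overlap, or 10.0% in either direction. The 3 members higher were Nr4a3, Ier5 and Klf6, and the 5 members lower Npas4, Btg2, Nr4a1, Dusp1 and Arc.

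The 3 calls lay close to the threshold. Leaving out any of pools 2, 3, 4, 6, 7 and 8 left 0 members called, and leaving out pool 1 or pool 5 gave 5. The genes called moved too, to 19 to 30 without any of the former pools. They were 556 of 17069 without pool 1 and 1262 of 17118 without pool 5. DESeq2, run on the same counts, called 8 members, 5 higher and 3 lower, against 6.32% of genes. The authors' deposited table lists 38 members in this comparison and also calls 8, again 5 higher and 3 lower, against 7.52% of the genes it lists. It gives Npas4 a log2 fold change of -0.83 with an adjusted p of 1.32e-05, Nr4a3 0.57 with 4.01e-05 and Btg2 -0.63 with 0.000325. At an unadjusted edgeR p below 0.05, 7 members were higher, against 10.6% of genes, and 9 lower, against 9.19%.

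**Figure D3:**
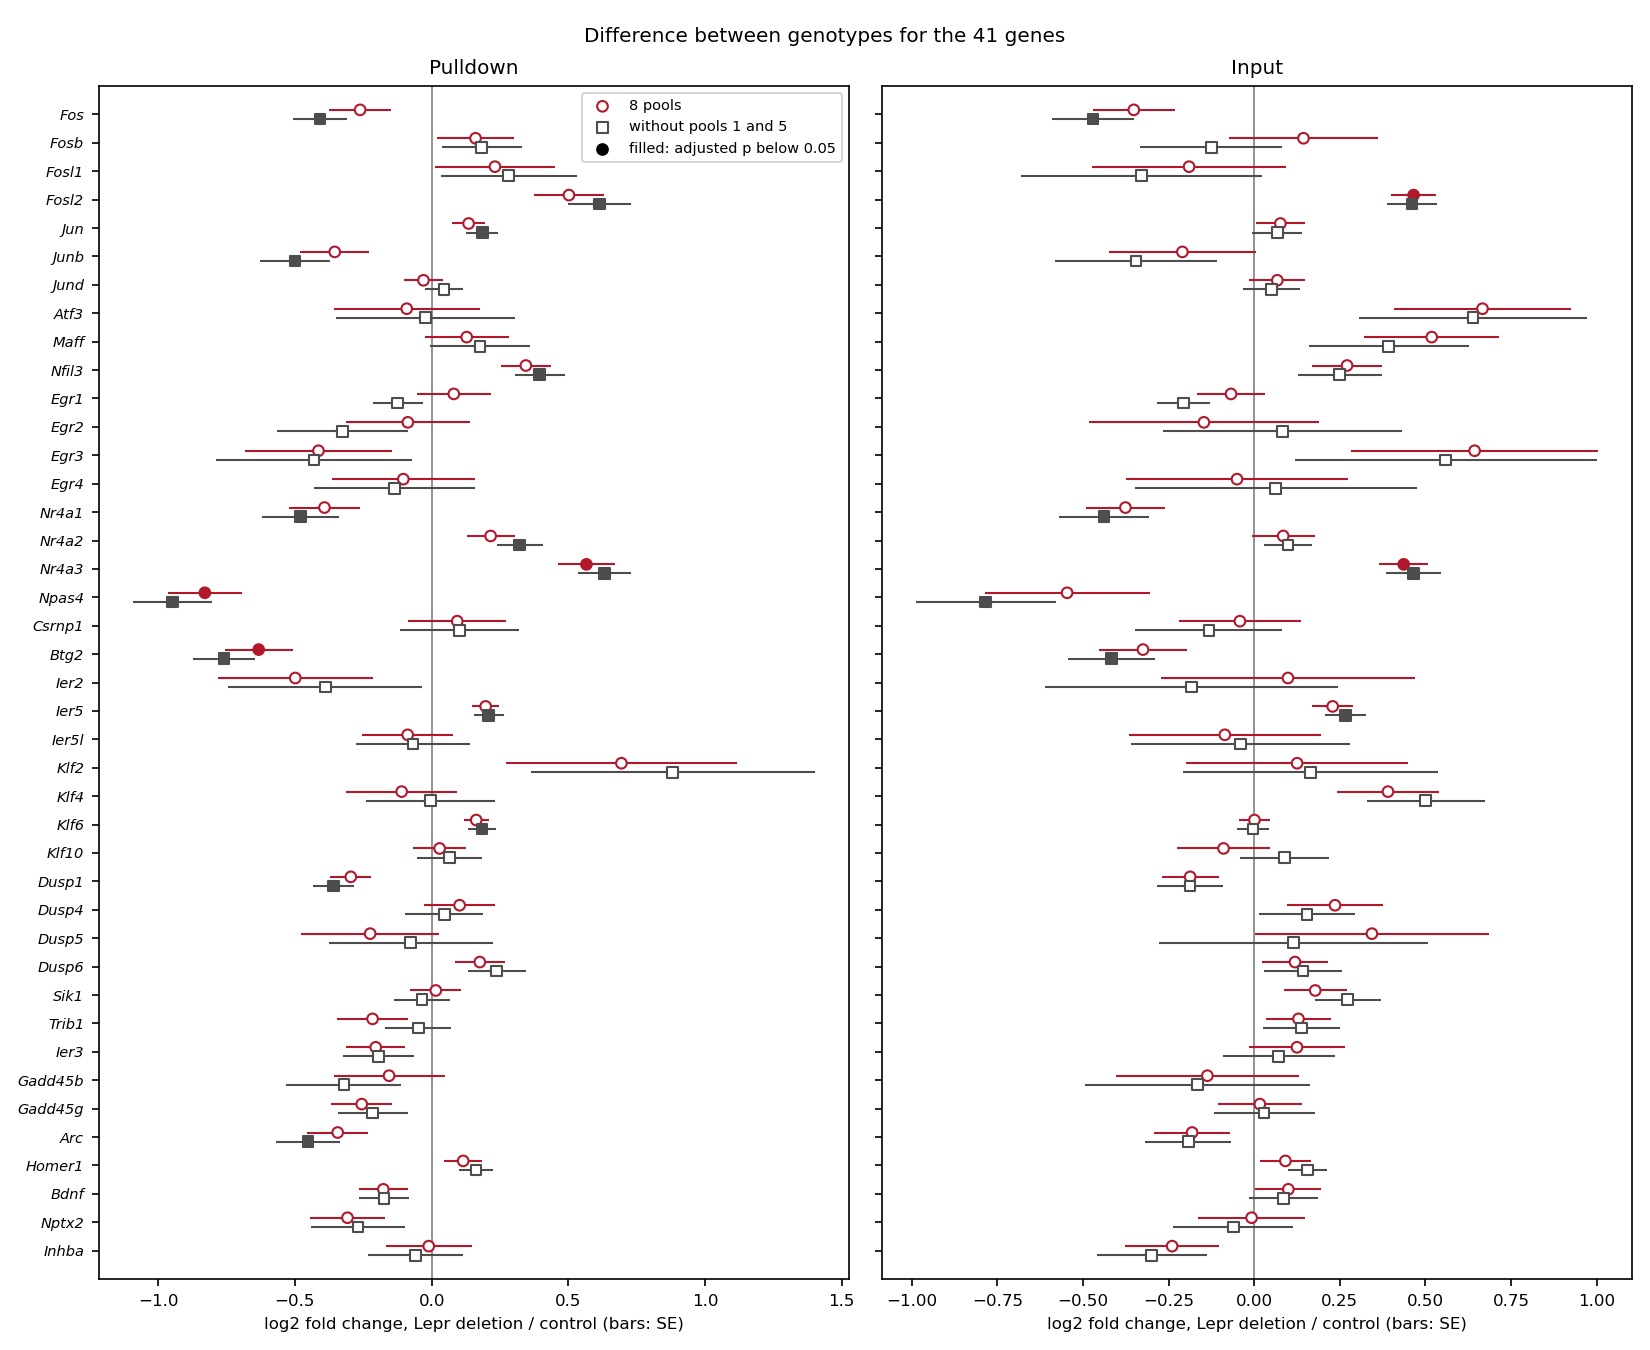
Log2 fold change of Lepr deletion over control with its standard error for the 41 members, in the pulldown and in the input, as circles with 8 pools and as squares without pools 1 and 5. Filled symbols have an adjusted p below 0.05, and with 8 pools these are Nr4a3, at 0.57, Npas4, at -0.83, and Btg2, at -0.63, in the pulldown, and Fosl2, at 0.47, and Nr4a3, at 0.44, in the input.

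Of the 46 glial, vascular, tanycyte and ependymal markers tested in the pulldown, Kdr, a receptor of endothelial cells, was higher in Lepr-deletion pools (log2 fold change 2.12, edgeR adjusted p = 0.0494), and the median of the list was 0.17. The summed level of the 10 endothelial and mural markers was 6.17 to 16.6 CPM in the Lepr-deletion pulldown and 3.91 to 7.11 CPM in the control pulldown. It was 46.2 to 87.4 CPM in the Lepr-deletion input and 43.5 to 58.3 CPM in the control input. Among them Cldn5 was at 0 in all 4 control pulldowns and at 0 to 0.0324 CPM, at or below the floor, in the Lepr-deletion pulldowns. Pecam1 had means of 0.306 CPM in the Lepr-deletion and 0.315 CPM in the control pulldown. Vtn was at 1.28 to 6.19 CPM and 0.362 to 1.48 CPM in the same groups, which overlap. The summed level of 11 microglial markers was 10.3 to 11.5 CPM in the Lepr-deletion pulldown and 12.6 to 12.9 CPM in the control pulldown, and that of 5 markers of oligodendrocyte precursors 5.21 to 6.99 CPM and 4.70 to 5.02 CPM in the same groups, neither overlapping. The sums of the other lists overlapped between the Lepr-deletion and the control pulldown. The 7 GABAergic markers summed to 3265 to 3565 CPM in the Lepr-deletion and 2661 to 3266 CPM in the control pulldown, the 10 pan-neuronal markers to 13678 to 14243 and 14069 to 15746 CPM, the 10 astrocyte markers to 385 to 427 and 381 to 411 CPM, the 9 oligodendrocyte markers to 128 to 159 and 122 to 142 CPM, and the 7 tanycyte and ependymal markers to 10.2 to 12.8 and 8.11 to 10.2 CPM. The part of these cells in the members' differences was not tested.

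In the whole-hypothalamus input, Fosl2 and Nr4a3 were higher in Lepr-deletion pools and no member was called lower. Of 17735 genes tested, 0.231% differed, 0.135% being higher and 0.0959% lower. The members' median log2 fold change was 0.08, against -0.00 over all genes. Fosl2 was at 38.4, 34.7, 37.3 and 35.9 CPM in Lepr-deletion pools, against 27.5, 26.04, 23.5 and 29.0 CPM in control pools. The groups were well apart (log2 fold change 0.47, SE 0.07, edgeR adjusted p = 0.00695). Nr4a3 was at 25.7, 24.7, 26.4 and 29.4 CPM in Lepr-deletion pools, against 20.1, 19.0, 18.1 and 21.2 CPM in control pools, again without overlap (log2 fold change 0.44, SE 0.07, edgeR adjusted p = 0.0213). At an unadjusted edgeR p below 0.05, 7 members were higher, against 7.34% of genes, and 5 lower, against 6.7%. DESeq2 called 3 higher, against 1.11% of genes, and 0 lower, against 1.04%. The length-scaled counts called 0 members, and the fit over all 16 libraries also called 0.

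The members lower in the pulldown were not called in the input. Npas4 was at 3.15, 2.56, 2.20 and 3.67 CPM in Lepr-deletion inputs, against 2.37, 5.95, 3.83 and 4.77 CPM in control inputs, where pool 1 was lower than 3 of the 4 Lepr-deletion pools (log2 fold change -0.55, SE 0.24, edgeR adjusted p = 0.327). Btg2 was at 6.68, 7.06, 5.37 and 7.58 CPM in Lepr-deletion inputs, against 6.68, 9.23, 8.26 and 9.26 CPM in control inputs (log2 fold change -0.32, SE 0.13, edgeR adjusted p = 0.283). Fos was at 18.2, 13.99, 12.8 and 19.5 CPM in Lepr-deletion inputs, against 18.04, 21.0, 20.6 and 22.5 CPM in control inputs (log2 fold change -0.35, SE 0.12, edgeR adjusted p = 0.231). In all 3 genes pool 1 was the lowest control. Without pools 1 and 5, 7 members differed in the input: Nr4a3 (log2 fold change 0.47), Fosl2 (0.46) and Ier5 (0.27) were higher, against 4.3% of genes, and Npas4 (-0.78), Fos (-0.47), Nr4a1 (-0.44) and Btg2 (-0.42) were lower, against 6.67%. Pool 5 stood to pool 1 in the same direction for 4 of these 7 members, the exceptions being Btg2, Fos and Npas4. Among all genes called in the input without those pools the share was 33.1%. With all pools, 7 members were higher and 0 lower without overlap between the groups. Of all 17735 genes tested, 719 were higher and 501 lower without overlap, or 6.88% in either direction.

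Egr1 was at 89.4, 70.6, 73.6 and 85.0 CPM in Lepr-deletion inputs, against 69.0, 77.6, 89.6 and 97.5 CPM in control inputs, with wide overlap. Arc was at 6.24, 5.88, 5.23 and 5.00 CPM in Lepr-deletion inputs, against 6.91, 6.57, 5.46 and 6.40 CPM in control inputs (log2 fold change -0.18, edgeR adjusted p = 0.482). The largest positive values in the input that did not pass were those of Atf3, a stress-induced factor, at a log2 fold change of 0.67 (edgeR adjusted p = 0.277), Egr3 at 0.64 (adjusted p = 0.447) and Maff at 0.52 (adjusted p = 0.272). All 3 are low genes, at 0.322 to 0.989 CPM for Atf3 and Egr3 and 1.46 to 2.16 CPM for Maff in the Lepr-deletion inputs. Apart from these and from Npas4, at -0.55, the members that were not called lay between -0.38, for Nr4a1, and 0.39, for Klf4. Set side by side over the 2 fractions, 14 members had positive and 13 negative fold changes in both, 4 were positive in the pulldown and negative in the input, and 10 the other way round. Input and pulldown of a pool come from the same lysate, so these signs are not independent.

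**Figure D4:**
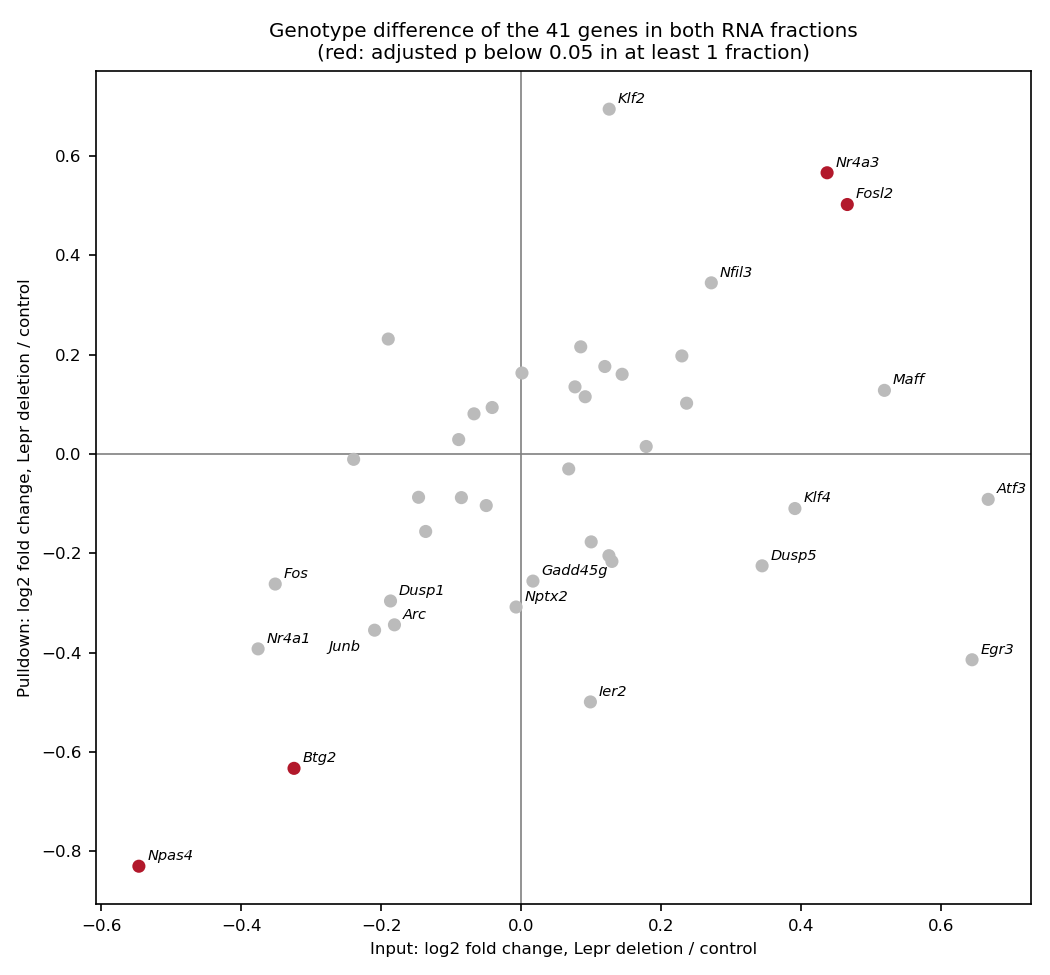
Log2 fold change of Lepr deletion over control for each of the 41 members, with the pulldown on the vertical and the input on the horizontal axis, members called in at least 1 fraction in red. Nr4a3 (0.57 in the pulldown and 0.44 in the input) and Fosl2 (0.50 and 0.47) lie at the upper right and Npas4 (-0.83 and -0.55) at the lower left, and 14 members are positive and 13 negative on both axes.

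The pulldown was then compared with the input within each genotype, which sets the level of each RNA in the pulldown against the whole hypothalamus. The pulldown also held RNA of glial markers, as given above, and the part of such RNA in the members' levels was not tested. In Lepr-deletion pools 8 members were higher in the pulldown and 14 lower, and in control pools 7 were higher and 12 lower. Of all genes tested in Lepr-deletion pools 61.6% differed, 28.8% being higher and 32.8% lower, and in control pools 64.8% differed, 30.1% being higher and 34.6% lower, so a call here is common for any gene. Of the members, 6 were called higher in both genotypes (Bdnf, Dusp1, Fos, Homer1, Jun and Jund), 10 were called lower in both, 16 in neither, and 0 in opposite directions. The members' median log2 fold change was -0.12 in Lepr-deletion and 0.06 in control pools, against -0.01 and -0.02 over all genes.

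These directions hold for TMM scaling. With library totals instead, 21 members were higher and 4 lower in Lepr-deletion pools, against 57.4% and 19.7% of genes, and 26 were higher and 5 lower in control pools, against 60.9% and 19.0%. That scaling moved the median of all genes to 0.44 in Lepr-deletion and 0.53 in control pools, from -0.01 and -0.02 with TMM. On TPM + 1 the medians were 0.70 and 0.75. The directions below are thus relative to most genes, and calls that turn under library totals or TPM + 1 are named with their members. Among members that were not called, some turned from negative to a called positive value with library totals. In Lepr-deletion pools these were Arc (0.38), Ier5 (0.33), Dusp4 (0.32), Sik1 (0.32) and Maff (0.43), and in control pools Ier5 (0.46), Btg2 (0.43) and Gadd45g (0.38). With each pool's pulldown set against its own input (the replicate block), 11 members were higher and 15 lower in Lepr-deletion pools, against 30.1% and 33.3% of genes. In control pools the block gave 11 higher and 12 lower, against 33.1% and 36.2%, and the 4 added there were Egr1 (edgeR adjusted p = 0.000129), Fosb (0.00905), Nr4a1 (0.0300) and Junb (0.0352). In Lepr-deletion pools it added Nr4a3 (edgeR adjusted p = 0.0104), Nr4a1 (0.0396) and Nfil3 (0.0474), all higher, and Klf10 (0.0486), lower.

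Fos was higher in the pulldown in both genotypes. In Lepr-deletion pools 5 to 8 it was at 29.5, 22.0, 21.9 and 27.3 CPM in the pulldown, against 18.2, 13.99, 12.8 and 19.5 CPM in the input, each pulldown being above all inputs (log2 fold change 0.64, SE 0.13, edgeR adjusted p = 0.00104). In control pools 1 to 4 it was at 26.7, 28.4, 31.2 and 35.5 CPM in the pulldown, against 18.04, 21.0, 20.6 and 22.5 CPM in the input (log2 fold change 0.55, SE 0.10, edgeR adjusted p = 0.000322). Its partner Jun was at 47.4, 46.2, 49.8 and 51.2 CPM in the Lepr-deletion pulldown, against 39.9, 36.1, 36.7 and 36.5 CPM in its input (log2 fold change 0.37, SE 0.05, edgeR adjusted p = 4.91e-05). In control pools Jun was at 48.5, 46.8, 42.1 and 41.3 CPM in the pulldown, against 37.0, 39.7, 33.4 and 31.4 CPM in the input (log2 fold change 0.32, SE 0.08, edgeR adjusted p = 0.00349). Jund was also higher, by log2 fold changes of 0.21 and 0.31 in Lepr-deletion and control pools. Fosl2 went the other way by TMM, at -0.35 and -0.38, but was positive with library totals, at 0.11 and 0.17. Thus 4 of the 7 AP-1 factors were called higher in Lepr-deletion and 3 in control pools, and Fosl2 was called lower in both.

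Fosb was at 5.21, 4.09, 3.85 and 5.29 CPM in the Lepr-deletion pulldown, against 4.81, 2.61, 2.86 and 3.14 CPM in its input (log2 fold change 0.45, SE 0.19, edgeR adjusted p = 0.0497), and at 4.94, 3.38, 3.92 and 4.40 CPM in the control pulldown, against 2.73, 2.40, 2.73 and 4.25 CPM in its input (0.44, SE 0.18, adjusted p = 0.0551). These values are alike although only the first passed the threshold. Egr1 was at 123, 89.6, 89.99 and 108 CPM in the Lepr-deletion pulldown, against 89.4, 70.6, 73.6 and 85.0 CPM in its input (log2 fold change 0.36, SE 0.10, edgeR adjusted p = 0.00813). In control pools Egr1 was at 75.8, 91.5, 107 and 117 CPM in the pulldown, against 69.0, 77.6, 89.6 and 97.5 CPM in the input, and each pulldown was above its own input (log2 fold change 0.21, SE 0.13, edgeR adjusted p = 0.187). Egr3 was lower in the pulldown of Lepr-deletion pools, at 0.272, 0.205, 0.325 and 0.330 CPM, against 0.787, 0.563, 0.322 and 0.704 CPM in their input (log2 fold change -1.08, SE 0.34, edgeR adjusted p = 0.0144). In control pools it was at 0.356, 0.320, 0.426 and 0.417 CPM in the pulldown, against 0.438, 0.225, 0.452 and 0.395 CPM in the input, and did not differ on this test (-0.01, SE 0.30). Egr2 had log2 fold changes of -0.72 (edgeR adjusted p = 0.052) and -0.78 (adjusted p = 0.0347) in Lepr-deletion and control pools, the second turning to 0.11 on TPM + 1.

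Bdnf had the largest positive value in control pools. It was at 22.5, 18.9, 22.7 and 18.8 CPM in the Lepr-deletion pulldown, against 17.0, 14.8, 16.2 and 13.2 CPM in its input (log2 fold change 0.43, SE 0.09, edgeR adjusted p = 0.0012). In control pools it was at 26.02, 23.4, 20.1 and 25.1 CPM in the pulldown, against 15.4, 13.9, 12.3 and 15.6 CPM in the input (log2 fold change 0.71, SE 0.10, edgeR adjusted p = 4.37e-05). Homer1 was at 51.8, 49.0, 49.4 and 51.2 CPM in the Lepr-deletion pulldown, against 43.0, 39.4, 40.6 and 40.7 CPM in its input, with no overlap (log2 fold change 0.29, SE 0.05, edgeR adjusted p = 0.000171). In control pools Homer1 was at 53.1, 48.4, 40.3 and 45.8 CPM in the pulldown, against 45.3, 35.5, 34.3 and 38.7 CPM in the input (log2 fold change 0.27, SE 0.10, edgeR adjusted p = 0.0264). Arc did not differ between pulldown and input in either genotype on this test, with log2 fold changes of -0.08 and 0.09 in Lepr-deletion and control pools, the first of which turned positive with library totals, at 0.38.

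The other synaptic and secreted effectors, Nptx2 and Inhba, were lower in the pulldown by TMM. Nptx2 was at 1.23, 1.21, 1.47 and 1.16 CPM in the Lepr-deletion pulldown, against 3.28, 3.30, 2.96 and 4.18 CPM in its input (log2 fold change -1.44, SE 0.16, edgeR adjusted p = 3.2e-06), and at 1.67, 1.58, 1.41 and 1.67 CPM in the control pulldown, against 2.89, 3.09, 3.54 and 4.25 CPM in its input (-1.14, SE 0.15, adjusted p = 3.83e-05). Inhba was at 2.61, 1.59, 2.34 and 2.24 CPM in the Lepr-deletion pulldown, against 4.34, 3.06, 4.38 and 3.40 CPM in its input (log2 fold change -0.80, SE 0.18, edgeR adjusted p = 0.00139), a value that turned to 0.09 on TPM + 1. In control pools Inhba was at 2.47, 2.01, 2.05 and 2.41 CPM in the pulldown, against 4.56, 4.42, 4.85 and 4.08 CPM in the input (log2 fold change -1.02, SE 0.12, edgeR adjusted p = 1.31e-05). The Inhba gene overlaps B230303A05Rik, so its counts may hold reads of that gene.

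The KLF factors were the role group lowest in the pulldown, with median log2 fold changes of -1.06 and -1.08 in Lepr-deletion and control pools. Klf2, which is known as a factor of endothelial cells, was at 0.166, 0.270, 0.267 and 0.211 CPM in the Lepr-deletion pulldown, against 0.531, 0.453, 0.982 and 0.872 CPM in its input (log2 fold change -1.63, SE 0.34, edgeR adjusted p = 0.00101). In control pools Klf2 was at 0.161, 0.203, 0.161 and 0.0439 CPM in the pulldown, against 0.543, 0.899, 0.646 and 0.515 CPM in the input (log2 fold change -2.20, SE 0.41, edgeR adjusted p = 0.000541), the last pulldown value being near the floor. Klf4, a relative with roles in vessels and in stem cells, was at 0.934, 0.962, 0.917 and 0.725 CPM in the Lepr-deletion pulldown, against 3.20, 3.95, 4.05 and 3.12 CPM in its input (log2 fold change -2.02, SE 0.16, edgeR adjusted p = 1.76e-07). In control pools Klf4 was at 1.23, 0.694, 0.874 and 1.07 CPM in the pulldown, against 3.07, 2.41, 2.41 and 3.04 CPM in the input (log2 fold change -1.52, SE 0.19, edgeR adjusted p = 3.03e-05). In both genotypes every pulldown was below every input for these 2 genes. Klf6 had log2 fold changes of -0.48 and -0.64, both called, which turned to 0.40 and 0.32 on TPM + 1. Klf10 was at -0.26 (edgeR adjusted p = 0.0617) and -0.37 (adjusted p = 0.0227), the second turning to 0.17 with library totals.

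Trib1 was at 3.55, 3.82, 4.69 and 3.97 CPM in the Lepr-deletion pulldown, against 9.81, 9.80, 11.6 and 9.12 CPM in its input (log2 fold change -1.34, SE 0.11, edgeR adjusted p = 2.29e-07). In control pools it was at 5.80, 4.34, 3.97 and 4.68 CPM in the pulldown, against 9.11, 9.96, 8.24 and 9.61 CPM in the input (log2 fold change -0.99, SE 0.12, edgeR adjusted p = 1.46e-05). Every pulldown was again below every input. The feedback phosphatase Dusp1 was higher in the pulldown, at 18.9, 17.1, 14.8 and 16.9 CPM, against 14.2, 13.1, 12.9 and 16.03 CPM in the input of Lepr-deletion pools (log2 fold change 0.26, SE 0.09, edgeR adjusted p = 0.0246). In control pools Dusp1 was at 20.8, 19.7, 22.1 and 21.1 CPM in the pulldown, against 16.1, 14.5, 16.7 and 16.7 CPM in the input (log2 fold change 0.37, SE 0.06, edgeR adjusted p = 0.000337). Ier3 was at 3.87, 3.64, 3.79 and 3.90 CPM in the Lepr-deletion pulldown, against 3.17, 3.42, 3.27 and 2.95 CPM in its input (0.24, SE 0.11, adjusted p = 0.0775), and at 4.62, 4.89, 3.57 and 4.59 CPM in the control pulldown, against 2.56, 2.60, 3.33 and 3.24 CPM in its input (0.57, SE 0.14, adjusted p = 0.00338). Dusp6, which acts on ERK, was lower by TMM, at log2 fold changes of -0.27 and -0.32, but positive with library totals, at 0.18 and 0.22. Gadd45g was called lower in Lepr-deletion pools, at -0.44, which became 0.01 with library totals, and stood at -0.17 in control pools, which became 0.38, called (edgeR adjusted p = 0.00902), with library totals. Dusp4, Dusp5, Gadd45b and Sik1 were called in neither genotype by TMM.

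Nr4a2 was lower in the pulldown by log2 fold changes of -0.58 (edgeR adjusted p = 6.22e-05) and -0.71 (adjusted p = 5.19e-05) in Lepr-deletion and control pools, both of which turned positive on TPM + 1, at 0.30 and 0.18. Without the replicate block, Nr4a1 and Nr4a3 were not called in either genotype. Nr4a1 was at 6.70, 5.93, 5.44 and 7.25 CPM in the Lepr-deletion pulldown, against 5.60, 4.92, 4.60 and 6.34 CPM in its input, each pulldown being above its own input. Npas4 and Btg2, at log2 fold changes of -0.44 and -0.43, were called lower in the pulldown of Lepr-deletion pools (edgeR adjusted p = 0.0444 and 0.00858), but both turned positive with library totals, at 0.01 and 0.03. In control pools they stood at -0.15 and -0.12, not called, and became 0.40, not called, and 0.43, called (edgeR adjusted p = 0.00726), with library totals. Csrnp1 was called lower in both genotypes, at -0.58 and -0.71, turning to 0.16 and 0.13 on TPM + 1, and its gene overlaps Gm33800. Ier2, Ier5, Ier5l, Atf3, Maff, Nfil3, Fosl1, Junb and Egr4 were called in neither genotype by TMM without the replicate block. With the block, Junb was called in control pools and Nfil3 in Lepr-deletion pools, as given above.

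**Figure D5:**
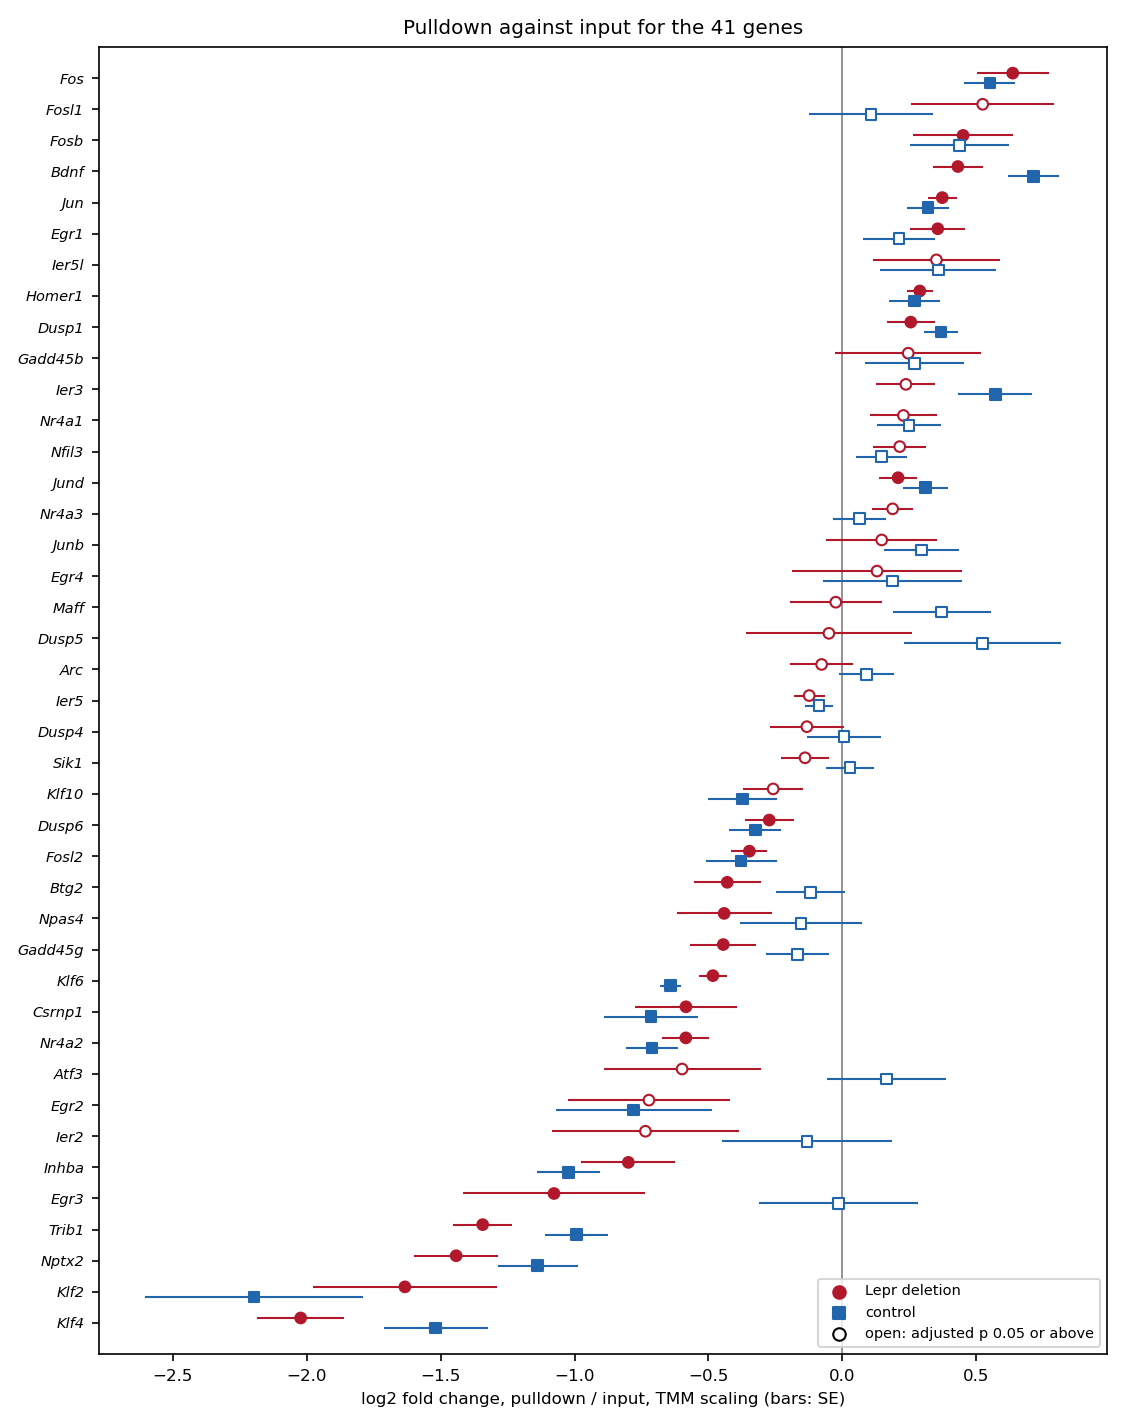
Log2 fold change of pulldown over input (TMM scaling) with its standard error for the 41 members, in Lepr-deletion pools as circles and in control pools as squares, filled where the adjusted p was below 0.05. Klf4 (-2.02 in Lepr-deletion and -1.52 in control pools) and Klf2 (-1.63 and -2.20) lie lowest, and Fos (0.64 and 0.55) and Bdnf (0.43 and 0.71) are among the highest, while members such as Fosl2 (-0.35 and -0.38) turn to 0.11 and 0.17 with library totals.

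Non-neuronal markers were lower in the pulldown beside these members, 50 of 51 in Lepr-deletion and 51 of 51 in control pools. Among them the endothelial and mural markers had median log2 fold changes of -2.28 and -3.11, and the microglial markers -4.40 and -4.38, all 11 being lower in each genotype. In the other direction 9 of 10 pan-neuronal markers were higher in both genotypes, with medians of 0.55 and 0.56, and all 7 markers of GABAergic neurons, with medians of 1.08 and 1.06. Whether the members lowest in the pulldown come from those other cells in the input was not tested.

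The difference in pulldown-to-input ratio between the genotypes was tested directly. No member passed with edgeR, and 2 of 18530 genes did, or 0.0108%. At an unadjusted edgeR p below 0.05, 1 member, Klf6, had a higher ratio in Lepr-deletion pools, against 4.46% of genes, and 3, Atf3, Trib1 and Egr3, a lower one, against 4.5%. In this fit, which leaves out the pairing of pulldown and input, these counts are near the share over all genes. Egr3 had the largest value of these, at -1.07 (SE 0.45, edgeR adjusted p = 0.508). Klf6 was at 0.15 (SE 0.06, edgeR adjusted p = 0.5), Trib1 at -0.36 (SE 0.17) and Atf3 at -0.77 (SE 0.35). With the replicate block, Bdnf had a lower ratio, at -0.29 (SE 0.07, edgeR unadjusted p = 0.00119, adjusted p = 0.186). Btg2, Trib1, Klf4 and Atf3 were also lower, and Klf6 and Egr1 higher, at an unadjusted edgeR p below 0.05 in that fit. The share over all genes at that level was not computed for that fit, so whether the members exceed it is not known. DESeq2 called 0 members and 21 genes, the fit with the replicate block 0 members and 4 genes, and the fit without pools 1 and 5 called 0 members and 87 genes. A member called in a single genotype above, such as Egr1, Egr3, Ier3 or Npas4, is therefore not shown to differ between genotypes in this ratio. For Npas4 the difference was -0.30 (SE 0.31) and for Fos 0.08 (SE 0.18).

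Other genes of the same pathways were taken as lists. Of 38 genes upstream of the members, among them CREB, SRF, MEF2, ERK and CaM kinase genes, 0 were called between genotypes in either fraction, and their median log2 fold change in the pulldown was 0.06. Without pools 1 and 5, 10 were higher and 4 lower in the pulldown, against 9.35% and 10.5% of genes, so the count lower is at the share over all genes. The NMDA receptor subunit gene Grin1 was lower, at -0.51 (edgeR adjusted p = 0.000221), as was the calcium channel gene Cacna1c, at -0.29. For Grin1 the pools left out ran the other way, pool 5 being at 73.3 CPM and pool 1 at 50.6 CPM in the pulldown. Mef2c, at 0.31, and Creb1, at 0.24, were higher. In the input the 6 pools without 1 and 5 gave 4 higher and 4 lower, against 4.3% and 6.67% of genes. Grin1 was at -0.47 there and Crem, a CREB relative that includes an inducible repressor, at 0.45. Grin1 again ran the other way in the pools left out, at 51.8 CPM in input pool 5 and 41.4 CPM in input pool 1.

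Of 59 further rapid and delayed activity-response genes, 0 were called between genotypes in the pulldown. In the input 1 was higher, Ctgf, a secreted matrix-associated factor (log2 fold change 1.42, SE 0.22, edgeR adjusted p = 0.0149). Without pools 1 and 5, 10 were higher and 7 lower in the pulldown, against the same 9.35% and 10.5% of genes, led by Mcl1, at 0.27, and by Brinp1, at -0.24, the secreted neuropeptide precursor gene Vgf, at -0.47, and Nptx1, at -0.34. In the input of those pools 9 were higher and 4 lower, against 4.3% and 6.67%, the prohormone convertase gene Pcsk1 being lower, at -0.50, and the granin gene Scg2 as well, at -0.32. Between fractions, 18 of the 59 were higher in the pulldown and 21 lower in Lepr-deletion pools, and 17 and 21 in control pools, shares near the 28.8% and 32.8% of all genes in Lepr-deletion and the 30.1% and 34.6% in control pools. Zfp36l1 and Zfp36l2, which destabilise AU-rich messenger RNAs, were lowest among those named, at -4.49 and -3.52 in Lepr-deletion and -4.59 and -3.57 in control pools.

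Of 14 ERK feedback genes that are not members, 0 were called between genotypes. Spry2, Spry4, Spred1 and Spred2 among them are also in the list of further activity-response genes, as is Crem of the upstream list. Counts of these lists are thus not separate. Without pools 1 and 5, Spry4 (log2 fold change 0.34), Dusp14 (0.24), Dusp16 (0.17) and Spred1 (0.16) were higher in the pulldown and 0 were lower, against 9.35% and 10.5% of genes. Of the glucocorticoid-responsive genes, which rise with stress hormones and in part overlap with activity genes, 0 of 14 tested were called in the pulldown, and in the input 1 of 15, the metallothionein gene Mt2, was lower (-0.43, edgeR adjusted p = 0.0278). Heat shock genes, another rapidly induced class, were called in both fractions: 2 of 16, Dnajb1 (log2 fold change 0.34, SE 0.05, edgeR adjusted p = 0.0346) and Hsph1 (0.27, SE 0.05, adjusted p = 0.0494), were higher in the Lepr-deletion pulldown, and Dnajb1 was higher in the input (0.45, SE 0.07, adjusted p = 0.011). The median of the 16 was 0.18 in the pulldown and 0.15 in the input, against -0.01 and -0.00 over all genes. Without pools 1 and 5, 12 of 16 were higher and 1 lower in the pulldown, against 9.35% and 10.5% of genes, and 12 were higher and 0 lower in the input, against 4.3% and 6.67%. The summed level of the 16 in Lepr-deletion pool 5 was the lowest of its genotype and that in control pool 1 the highest of its genotype, in both fractions.

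Between fractions, 17 of the 38 upstream genes were higher in the pulldown and 12 lower in Lepr-deletion pools, against 28.8% and 32.8% of genes, and 16 and 15 in control pools, against 30.1% and 34.6%. The calcineurin subunit gene Ppp3cb, at log2 fold changes of 0.77 and 0.73, and Prkacb, a catalytic subunit of protein kinase A, at 0.59 and 0.56, were higher in Lepr-deletion and control pools. The CREB coactivator gene Crtc3, at -1.16 and -1.22, and Elk4, a partner of SRF, at -0.68 and -0.71, were lower. Of the glucocorticoid-responsive genes, 0 of 15 were higher and 12 lower in Lepr-deletion pools, and 1 was higher and 11 lower in control pools, with Mt2 at -3.78 and -3.72. Of the heat shock genes 9 of 16 were higher and 2 lower in each genotype, and of the ERK feedback genes 4 of 14 were higher and 3 lower in Lepr-deletion pools and 4 higher and 2 lower in control pools. With library totals, where 57.4% of genes were higher and 19.7% lower in Lepr-deletion and 60.9% and 19.0% in control pools, these counts became 27 higher and 4 lower in Lepr-deletion and 29 and 4 in control pools for the upstream genes, 3 and 6 in Lepr-deletion and 6 and 6 in control pools for the glucocorticoid-responsive genes, 13 and 2 in Lepr-deletion and 14 and 1 in control pools for the heat shock genes, and 11 and 1 in Lepr-deletion and 10 and 1 in control pools for the ERK feedback genes. Those of the 59 further activity-response genes became 33 and 13 in Lepr-deletion and 38 and 12 in control pools.

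Reads of overlapping genes cannot be told apart in these totals where strand was not used, which is not given in the sources used here. Of the members, 8 overlap another annotated gene: Fosl1, Egr2, Nr4a2, Dusp6, Klf10, Inhba, Sik1 and Csrnp1. No member called between genotypes with all pools is among them.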

How the data were processed

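RNA of the hypothalamus was measured in 16 libraries, 4 pulldown and 4 input libraries for each genotype. Per the submitters' processing notes, the authors ran Salmon 1.10.1 on build GRCm38 and DESeq2 1.38.3; annotation release, strand setting and filters are not given in the sources used here. The deposited tables hold estimated counts per gene, estimated counts scaled by gene length, and TPM, the authors' length-normalised values. The authors' deposited comparison table holds log2 fold changes and adjusted p-values, cited only where named.

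The estimated counts were rounded and tested with edgeR 4.0.16 (R 4.3.3) by quasi-likelihood, with TMM factors, the filterByExpr filter (minimum count 10, total 15) and Benjamini-Hochberg adjustment over all genes tested. A gene was called at an adjusted p below 0.05. Each fit held only the libraries of its comparison, all 16 for the difference of ratios. Levels are CPM scaled by TMM over all 16 libraries. Alternatives were DESeq2 1.42.0, other scalings and filters, limma 3.58.1 on log2(TPM + 1) and log2(TPM + 0.1), a replicate block, and libraries left out. The procedure was tested on simulated data.

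Pulldown and input with the same number come from the same lysate per the labels' protocols, which pairs them; their deviations correlated at 0.0446 to 0.364 over 8 pairs, 6 above 0.1. No replicate pair was within sampling noise (chi-square statistic over its degrees of freedom, 7.76 to 46.5 in 24 pairs). Every member is named. Pool values are given for Nr4a3, Npas4, Btg2 and Fosl2, for the 5 largest called changes each way between fractions, and for Fos, Egr1, Arc, Npas4, Nr4a1, Junb, Bdnf and Homer1, with others added after their values were seen. The members and the lists were chosen with earlier results of these data known. With 4 pools against 4, an exact permutation test could not go below 0.0286.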

Additional observations from a re-analysis of the deposited data

Results flagged for a closer look

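Of 164 sets of 4 pools checked for a pool far from the other 3, 6 held such a pool, and chance flags about 1 in 20. Nr4a1 was at 10.6 CPM in control pulldown pool 4 and at 7.41 to 7.74 CPM in the other control pulldowns. Egr4 was at 0.725 CPM in Lepr-deletion pulldown pool 8, against 0.400 to 0.453 CPM in the others, and Ier5l at 1.18 CPM in pool 7 of the same group, against 1.02 to 1.04 CPM. Jun was at 39.9 CPM in Lepr-deletion input pool 5, against 36.1 to 36.7 CPM in the others, and Ier5 at 25.5 CPM in the same pool, against 28.5 to 29.0 CPM. Klf10 was at 3.97 CPM in control pulldown pool 2, against 4.90 to 4.97 CPM in the other control pulldowns.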

How the results depend on the processing

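Between genotypes the number of members called in the pulldown, 3, became 8 with DESeq2, 5 in the fit over all 16 libraries, 14 without pools 1 and 5, and 0 with length-scaled counts or limma on log2(TPM + 1) or log2(TPM + 0.1). Of all genes tested, the main fit called 108 of 16859, DESeq2 1065 of 16859 and the fit over all 16 libraries 508 of 18530. Without pools 1 and 5 it was 3363 of 16918, with length-scaled counts 16 of 18020, and with limma 30 and 22 of 16859. Leaving out 1 pool at a time gave 0 to 5 members and 19 to 1262 genes. In the input the 2 calls became 0 with length-scaled counts, 0 over all 16 libraries, 1 with limma at either pseudocount, 7 without pools 1 and 5, and 1 to 3 with 1 pool left out. The genes called there, 41 in the main fit, became 11, 57, 22 or 20, 1957, and 19 to 402 in the same order. Between fractions the 19 calls in control pools became 31 with library totals and 35 with limma at either pseudocount, and the 22 in Lepr-deletion pools became 34 with limma at either. In control pools the genes called went from 11381 of 17570 to 14044 with library totals and 15077 or 15073 with limma. In Lepr-deletion pools they went from 10740 of 17423 to 14690 or 14707 with limma, so calls rose over all genes too. The cause of these changes was not tested, except that fewer libraries enter a fit with pools left out.

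Egr1 turned to -0.12 in the pulldown without pools 1 and 5 and was -0.029 to 0.18 with 1 pool left out, and in the input it turned to 0.027 on both TPM scales and was -0.15 to 0.011 with 1 pool left out. With library totals, log2(TPM + 1) and log2(TPM + 0.1), the pulldown over input value turned in Lepr-deletion pools to 0.11, 0.49 and 0.54 for Fosl2, 0.38, 0.64 and 0.80 for Arc, 0.015, 0.28 and 0.44 for Npas4, 0.18, 0.52 and 0.62 for Dusp6, 0.025, 0.38 and 0.47 for Btg2, and 0.011, 0.42 and 0.46 for Gadd45g. In control pools it turned to 0.17, 0.49 and 0.56 for Fosl2, 0.40, 0.59 and 0.85 for Npas4 (-0.35 to 0.058 with 1 library left out), 0.22, 0.52 and 0.64 for Dusp6, and 0.17, 0.47 and 0.60 for Klf10. On log2(TPM + 1) and log2(TPM + 0.1) alone it turned in Lepr-deletion pools to 0.30 and 0.32 for Nr4a2, 0.40 and 0.42 for Klf6, 0.085 and 0.10 for Inhba, and 0.16 and 0.29 for Csrnp1, and in control pools to 0.11 and 0.25 for Egr2, 0.18 and 0.19 for Nr4a2, 0.32 and 0.34 for Klf6, and 0.13 and 0.24 for Csrnp1. The Fosl2 difference of ratios, 0.02, became -0.058 with library totals and -0.018 on log2(TPM + 0.1), and was -0.075 to 0.15 with 1 library left out.

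The replicate block, which uses the pairing of pulldown and input, gave 23 calls in control and 26 in Lepr-deletion pools, the added ones being named in the report, and it changed no other call. Depth limits Klf2, Egr3 and the other members below 1 CPM.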
